A study of Mus musculus and Rattus norvegicus with 28 samples.

Results

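The genes described here are those of the cardiac myosin heavy chains, Myh6, Myh7 and Myh7b, and of the cardiac myosin light chains, Myl2, Myl3, Myl4 and Myl7. They were taken by name, not by their values, and all 7 were found among the 55450 mouse genes and among the 32623 rat genes of the expression files. All 7 passed the filter on low expression in both species. On mm10, Myh6 (chr14:54941921-54966927) and Myh7 (chr14:54970684-54994626) lie side by side on the minus strand. Myh7b (chr2:155611212-155634307), Myl2 (chr5:122100951-122113472), Myl3 (chr9:110741861-110769798) and Myl4 (chr11:104550663-104595753) lie on the plus strand, and Myl7 (chr11:5896637-5898782) on the minus strand. ATAC-seq peaks within 2.5 kb of any annotated transcript start of these genes were collected as well.

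Cardiomyocytes were prepared from the left ventricles of wild-type C57BL/6 mice of both sexes at embryonic day 18.5 (E18.5) and postnatal days 1, 3 and 7 (P1, P3 and P7), by trypsin and collagenase digestion and pre-plating. Each time point had 2 RNA-seq and 2 ATAC-seq libraries. Ventricular cardiomyocytes of P1 Sprague Dawley rats were plated and, a day later, received DMSO as control or 100 nM trichostatin A (TSA), an inhibitor of histone deacetylases, with 3 RNA-seq libraries per group. For cultures given TSA or DMSO the study's methods also describe transfection with a control siRNA or one against Mef2a. The labels of these 6 libraries name no transfection, the file headers of the 3 control libraries carry a time of 48 h and those of TSA none, so transfection and the length of treatment of each library are not given in the sources used here. The 6 HiChIP libraries were not analysed here. None of the sources used here states how many animals went into an RNA-seq library, so the p-values measure the spread between libraries, part of which may be technical. An exception, for levels relative to cardiomyocyte markers, is given below.

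Myosin is the motor of the thick filament, in which each heavy chain carries an essential and a regulatory light chain. Rodent ventricles switch around birth from Myh7, the slow beta heavy chain, to Myh6, the fast alpha heavy chain. Myl2 and Myl3 are the regulatory and essential light chains of ventricular muscle, while Myl7 and Myl4 are their atrial counterparts and are also found in the fetal ventricle. Myh7b is a minor heavy chain related to Myh7.

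The mouse RNA-seq libraries held 29.3 to 37.5 M aligned reads and the rat libraries 28.2 to 38.5 M, as worked out from coverage and FPKM. Cardiomyocyte identity was checked with 16 marker genes that hold none of the myosin genes. All 16 were detected in mouse, but their summed level fell from 18920 to 24760 FPKM at E18.5 to 837 to 1850 FPKM at P7. The summed level of 12 fibroblast markers rose over the same time points from 488 to 501 FPKM to 3299 to 4102 FPKM. The summed level of erythroid markers was 29050 to 35400 FPKM at E18.5 and at most 41.1 FPKM afterwards. Of 11 immediate early and dissociation genes, 11 were called lower than at E18.5 at P1 and 9 at P7, beside 6.06% and 12.3% of all tested genes. The part of these lists in the results was not tested. In bulk RNA, fewer cardiomyocytes and less RNA per cardiomyocyte cannot be told apart. From staining of cardiac troponin T, the study reported that its cardiomyocyte preparations were of high purity, also at P7. In rat, replicate 3 of each group stood apart, with Nppa at 7396 FPKM in control and 10952 FPKM with TSA against 1068 to 1182 FPKM in the other 4 libraries. Values without replicate 3 of both groups, an alternative chosen after seeing the data, are given beside the rat results.

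The start regions of 4 genes are printed because their transcripts followed different courses after birth and because the presence or absence of ATAC-seq peaks near them is described further on. They are the heavy chain pair Myh6 and Myh7 and the regulatory light chain pair Myl2 and Myl7. Each is a 300-base window on the sense strand, from RefSeq on GRCm38.p6, the assembly also called mm10. Capitals mark matches, on either strand, to MEF2 and the CArG box of SRF, to CATTCC of TEAD factors, to AGATAA of GATA factors, to TGANTCA of AP1, to AGGTCA of nuclear receptors and to the TATA box TATAAA. For Myl2 the window was read from the genome around the start of its most abundant transcript, since the listed RefSeq windows lay upstream of it.
Myh6, chr14:54966558-54966857, minus strand: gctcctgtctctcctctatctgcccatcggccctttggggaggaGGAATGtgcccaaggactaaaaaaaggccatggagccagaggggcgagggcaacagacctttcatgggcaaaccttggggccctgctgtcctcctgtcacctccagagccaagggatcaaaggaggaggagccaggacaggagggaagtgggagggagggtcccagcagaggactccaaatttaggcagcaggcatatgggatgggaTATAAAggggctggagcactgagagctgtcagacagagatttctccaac
Myh7, chr14:54994577-54994876, minus strand: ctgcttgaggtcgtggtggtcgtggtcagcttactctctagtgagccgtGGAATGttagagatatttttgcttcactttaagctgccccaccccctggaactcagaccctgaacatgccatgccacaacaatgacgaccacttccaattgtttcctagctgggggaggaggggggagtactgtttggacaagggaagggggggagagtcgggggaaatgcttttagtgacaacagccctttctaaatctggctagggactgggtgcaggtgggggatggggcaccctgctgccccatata
Myl2, chr5:122100701-122101000, plus strand: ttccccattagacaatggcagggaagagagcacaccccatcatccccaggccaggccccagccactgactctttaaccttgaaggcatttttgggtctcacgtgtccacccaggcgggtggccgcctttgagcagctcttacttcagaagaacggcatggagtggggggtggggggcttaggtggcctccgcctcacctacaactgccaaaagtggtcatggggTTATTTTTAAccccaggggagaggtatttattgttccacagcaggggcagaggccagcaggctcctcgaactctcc
Myl7, chr11:5898733-5899032, minus strand: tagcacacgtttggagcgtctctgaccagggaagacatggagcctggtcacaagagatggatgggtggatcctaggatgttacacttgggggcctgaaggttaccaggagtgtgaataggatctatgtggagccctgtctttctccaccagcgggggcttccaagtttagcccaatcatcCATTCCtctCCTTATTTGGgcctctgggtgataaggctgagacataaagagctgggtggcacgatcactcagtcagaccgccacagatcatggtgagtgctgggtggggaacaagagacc

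Myh6 and Myh7 each held a TEAD match in these windows. The Myh6 window also held a TATA box, 35 bases downstream of the start of its most abundant transcript, at chr14:54966641. Other annotated Myh6 transcripts start further downstream, at 54966605 and 54966574. Myl2 held a MEF2 match and Myl7 a CArG box beside a TEAD match. Across the 7 genes, windows at the main start held TEAD matches in 4 (Myh6, Myh7, Myl3 and Myl7) and CArG boxes in 2 (Myl3 and Myl7). Counted by window, TEAD matches were in 4 and CArG boxes in 2 of the 11 windows. A second Myh7 window over the same start, chr14:54994500-54994799, held no match. Among 32851 promoter windows of the same length, TEAD matches were in 14.7%, TATA boxes in 13.6%, MEF2 matches in 3.19% and CArG boxes in 1.63%. The AP1 letters were in 7.81% of all windows and in 0 of the 11 windows of the myosin genes. A match describes the letters only, and the motifs do not overlap each other in the printed windows.

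Among the heavy chains, Myh7 had fallen by P1, while Myh6 was called lower at P7. Myh7 stood at 1620.0 and 2078 FPKM in the libraries of E18.5, at 36.6 and 73.9 FPKM at P1, at 23.7 and 26.9 FPKM at P3 and at 7.51 and 5.20 FPKM at P7. No library of a later time point overlapped those of an earlier time point. The mean at P1 was 33.5-fold lower than at E18.5, with a log2 fold change on log2(FPKM + 1) of −5.11 ± 0.31 (SE, limma, adjusted p = 4.1e-05). By P7 the log2 fold change was −7.98 ± 0.31 (adjusted p = 2.9e-06), the largest fall among the 7 genes, and it corresponded to a mean 291-fold lower.

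Myh6 had 1243 and 1548 FPKM at E18.5, 1256 and 3047 FPKM at P1, 853 and 1062 FPKM at P3 and 190.3 and 68.5 FPKM at P7. Its P1 libraries differed from each other by more than those of E18.5 and overlapped them, and the P1 value rested on replicate 2. The log2 fold change from E18.5 was 0.50 ± 0.51 at P1 (adjusted p = 0.46) and −0.54 ± 0.51 at P3 (adjusted p = 0.40), neither of which passed the test. Without P1 replicate 2 the P1 value was −0.14. At P7 Myh6 had fallen, with a log2 fold change of −3.59 ± 0.51 (adjusted p = 5.8e-04) from E18.5 and of −4.09 ± 0.51 (adjusted p = 0.0016) from P1.

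Myh7b, whose intron hosts a myosin-locus microRNA, was the least abundant member at each time point. It had 31.3 and 37.8 FPKM at E18.5, 1.80 and 7.17 FPKM at P1, 0.872 and 1.46 FPKM at P3 and 0.148 and 0.126 FPKM at P7, with no overlap between time points. Its log2 fold change from E18.5 was −2.89 ± 0.43 at P1 (adjusted p = 0.0015), −4.04 ± 0.43 at P3 (adjusted p = 2.3e-04) and −4.96 ± 0.43 at P7 (adjusted p = 5.2e-05). The added 1 FPKM understates the last of these, since the mean FPKM was 253-fold lower at P7 than at E18.5.

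Of the regulatory light chains, ventricular Myl2 was called lower than at E18.5 from P1 on and atrial Myl7 from P3 on, per library rather than per cardiomyocyte marker. Myl2 stood at 5267 and 6835 FPKM at E18.5, at 1385 and 2091 FPKM at P1, at 900.2 and 650.5 FPKM at P3 and at 198 and 79.0 FPKM at P7. The libraries of the 4 time points did not overlap. Its log2 fold change from E18.5 was −1.82 ± 0.40 at P1 (adjusted p = 0.0088), −2.97 ± 0.40 at P3 (adjusted p = 7.1e-04) and −5.57 ± 0.40 at P7 (adjusted p = 2.9e-05).

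Myl7 had 419 and 436 FPKM at E18.5, 331 and 422 FPKM at P1, 189.7 and 96.5 FPKM at P3 and 101 and 71.6 FPKM at P7. The libraries of E18.5 and P1 overlapped, as did those of P3 and P7, with a step between P1 and P3. The log2 fold change from E18.5 was −0.19 ± 0.30 at P1 (adjusted p = 0.64), −1.65 ± 0.30 at P3 (adjusted p = 0.0028) and −2.31 ± 0.30 at P7 (adjusted p = 3.9e-04). The fall of Myl7 to P7 was the smallest among the 7 genes, and with TPM in place of FPKM its P1 value was 0.05.

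Both essential light chains, ventricular Myl3 and atrial Myl4, were called lower than at E18.5 from P3 on, again per library. Myl3 had 4291 and 5148 FPKM at E18.5, 1404 and 1988 FPKM at P1, 929 and 590.2 FPKM at P3 and 189 and 45.7 FPKM at P7, without overlap. Its log2 fold change from E18.5 was −1.49 ± 0.56 at P1, which missed the threshold (adjusted p = 0.064), −2.66 ± 0.56 at P3 (adjusted p = 0.0053) and −5.64 ± 0.56 at P7 (adjusted p = 9.8e-05).

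Myl4 had 492 and 582 FPKM at E18.5, 269 and 295 FPKM at P1, 151 and 59.97 FPKM at P3 and 79.2 and 55.5 FPKM at P7. Its libraries lay below those of E18.5 at each later time point, while P3 and P7 overlapped. The log2 fold change from E18.5 was −0.93 ± 0.37 at P1 (adjusted p = 0.080), −2.48 ± 0.37 at P3 (adjusted p = 0.0011) and −2.99 ± 0.37 at P7 (adjusted p = 3.0e-04).

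**Figure D1:**
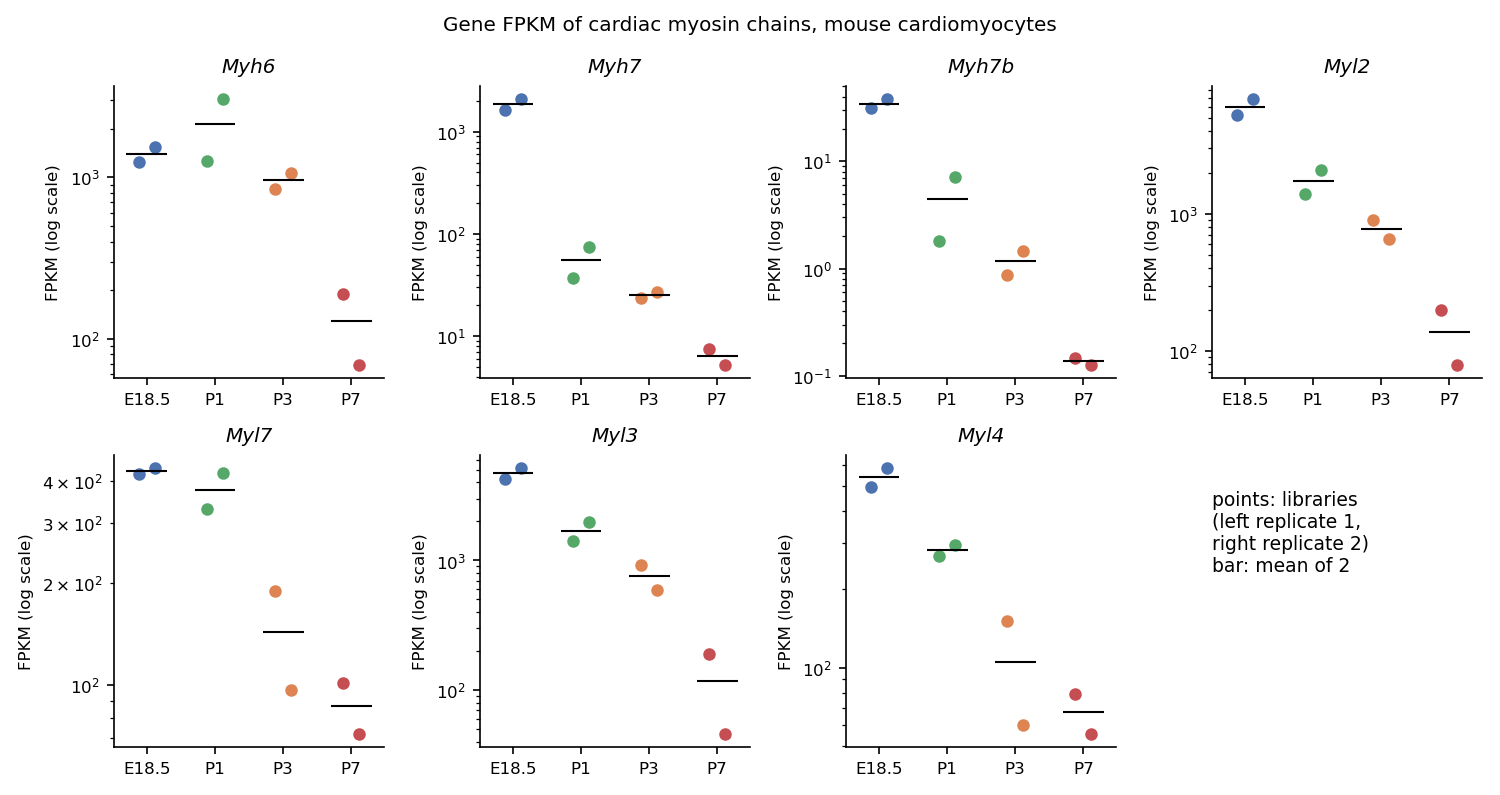
Gene FPKM (log scale) of each myosin gene in the 2 mouse RNA-seq libraries of each time point, with a bar at the mean. Myh7 drops from 1620.0 and 2078 FPKM to 36.6 and 73.9 FPKM between E18.5 and P1, while the Myh6 libraries of those time points overlap, and each gene is lowest at P7.

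The order of the genes by FPKM, which is scaled for transcript length, also changed. At E18.5 it ran from Myl2 through Myl3, Myh7, Myh6, Myl4 and Myl7 to Myh7b, and no neighbours overlapped. At P1 and P3, Myh6, Myl2 and Myl3 formed the top of the order with overlapping libraries, and Myh7 lay below Myl4. At P7 the 5 genes Myl2, Myh6, Myl3, Myl7 and Myl4 each overlapped the next in line, with means of 138.6 to 67.4 FPKM, while Myh7 and Myh7b remained apart below them. As a share of all TPM, the 7 genes summed to 2.52% and 3.02% in the E18.5 libraries, while the P1 libraries gave 1.01% and 1.75%, the P3 libraries 0.660% and 0.556%, and the P7 libraries 0.168% and 0.0732%.

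Calls required an adjusted p below 0.05 together with a log2 fold change of more than 1 in either direction. Against E18.5, 3 of the 7 genes were called lower at P1 (Myh7, Myh7b and Myl2), where 6.06% of all tested genes were called lower and 10.1% higher. At P3, 6 of 7 were called lower, all but Myh6, against 8.88% of all genes, with 13.0% called higher. At P7 all 7 were called lower, against 12.3% of all genes, with 15.4% called higher. These comparisons share the E18.5 libraries. Between P1 and P3, 0 of 7 genes were called lower, as were 0.0% of all genes by limma, with 0.0143% called higher, although 1577 genes had an unadjusted p under 0.05 and Myl7 had a log2 fold change of −1.46 ± 0.30 (unadjusted p = 0.0013).

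Between P1 and P7, 7 of 7 genes were called lower against 5.46% of all genes, with 3.45% called higher. Between P3 and P7, 4 of 7 (Myl2, Myl3, Myh6 and Myh7) were called lower against 2.2%, with 1.35% called higher. Myl4 and Myl7 overlapped between P3 and P7, with log2 fold changes of −0.51 ± 0.37 (adjusted p = 0.55) and −0.66 ± 0.30 (adjusted p = 0.30). The 4 calls between P3 and P7 did not all hold without either P3 library or without P7 replicate 2. Each of these fits leaves 1 library at a time point, and calls among all tested genes also became fewer. Over all left-out libraries the log2 fold changes were −3.26 to −1.94 for Myl2 and −3.99 to −1.97 for Myl3. They were −3.78 to −2.32 for Myh6 and −2.08 to −1.62 for Myh7. The count at P1 was 5 with median-of-ratios size factors, which moved the median log2 fold change of all genes from 0.15 to −0.01. It was 2 without E18.5 replicate 2 or P1 replicate 1.

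The falls ran beside that of the cardiomyocyte markers, and their part in the result was not tested. From E18.5 to P7 all 16 markers were called lower with a median log2 fold change of −3.95, against −4.96 for the 7 myosin genes and 0.15 for all tested genes. At P1 the medians were −0.73 for the markers and −1.49 for the myosin genes. Subtracting the mean log2 level of the 16 markers from each library raised the median of all genes by P7 to 4.11. With it, 13787 of 13979 tested genes were called higher at P7 than at E18.5 and 15 lower. Each library's offset is shared by all its genes, but the test treats genes as independent. The p-values on this scale therefore do not measure the spread of the offset between libraries and can be too small. On that scale Myh7, Myl3 and Myl2 were still lower at P7 than at E18.5, by −4.02 ± 0.52 (adjusted p = 3.6e-14), −1.68 ± 0.50 (adjusted p = 7.9e-04) and −1.61 ± 0.50 (adjusted p = 0.0013). Myl7 was higher, with a log2 difference of 1.65 ± 0.51 (adjusted p = 0.0014). The values for Myl4 of 0.97 ± 0.52 (adjusted p = 0.061) and for Myh6 of 0.37 ± 0.50 (adjusted p = 0.46) did not pass the test. Myh7b, with at most 0.148 FPKM at P7, lay below the added 1 FPKM, which understates its fall on this scale (−1.0 ± 0.54, adjusted p = 0.067). With 0.1 FPKM added, an alternative chosen after seeing the data, Myh7b was called lower at −3.0 ± 0.62 (adjusted p = 1.5e-06) and Myl4 higher at 1.18 ± 0.56 (adjusted p = 0.037).

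At P1 and P3 fewer genes were called lower relative to the markers than per library. At P1 they were Myh7 (−4.37 ± 0.52, adjusted p = 4.0e-14) and Myh7b (−2.15 ± 0.54, adjusted p = 0.0015), while Myl2 no longer passed (−1.07 ± 0.50, adjusted p = 0.091). At P3 they were Myh7, Myh7b and Myl2, while Myl3 (−0.96 ± 0.50, adjusted p = 0.065), Myl4 (−0.77 ± 0.52, adjusted p = 0.15) and Myl7 (0.05, adjusted p = 0.92) did not pass. Myh6 was higher at P3 than at E18.5, with a log2 difference of 1.16 ± 0.50 (adjusted p = 0.026), and at P1 the value was 1.24 ± 0.50 (adjusted p = 0.054). Of the 13979 tested genes, 3199 were called higher and 141 lower at P1 relative to the markers, and 11672 and 69 at P3. Between P1 and P7 Myh7 did not pass, at 0.35 ± 0.52 (adjusted p = 0.51). The sign for Myl7, Myl4 and Myh6 at P7 against E18.5 thus depended on whether levels were taken per library or per cardiomyocyte marker, whereas that of Myh7, Myl2, Myl3 and Myh7b did not.

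**Figure D2:**
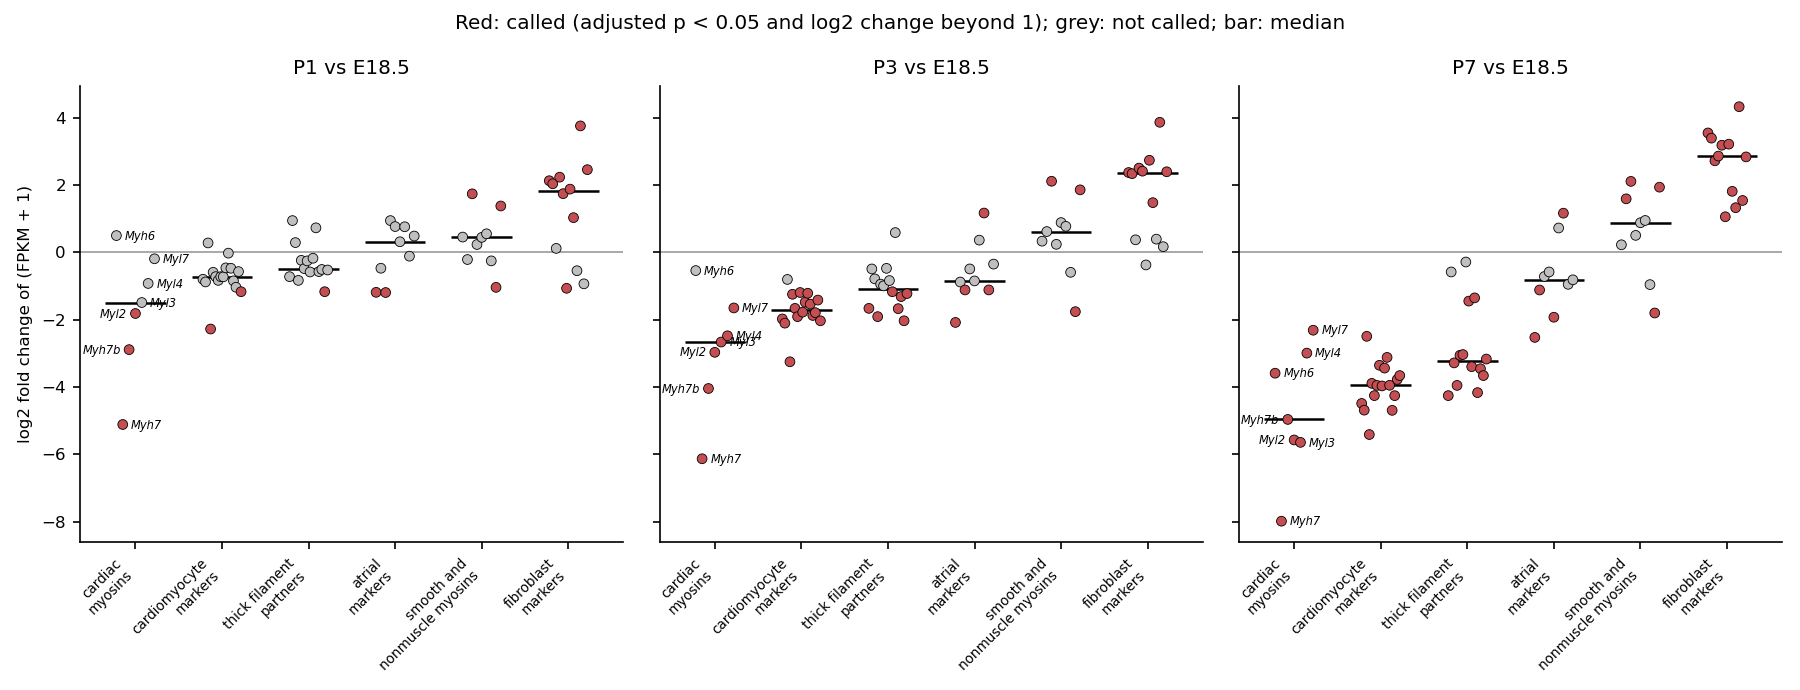
Log2 fold change of (FPKM + 1) from E18.5 for the myosin genes and 5 gene lists, 1 point per gene, red where called and grey where not, with a bar at the median. At P7 the myosin genes have a median of −4.96 and the cardiomyocyte markers one of −3.95, while the fibroblast markers lie above 0.

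Ratios between genes of 1 library do not depend on how libraries are scaled, and 4 of them were compared over the time points. The Myh7 share of Myh6 plus Myh7 was 56.6% and 57.3% at E18.5, 2.83% and 2.37% in the P1 libraries, 2.71% and 2.47% at P3, and 3.80% and 7.06% at P7. Most of the pair was Myh7 at E18.5 and Myh6 from P1 on, and the E18.5 libraries lay above all later ones. An exact permutation test of log2 Myh7/Myh6 over the time points gave p = 0.0286, or 0.0571 after Benjamini-Hochberg adjustment over 4 ratios, where the smallest p the design allows is 0.00952.

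The Myl7 share of Myl2 plus Myl7 was 7.37% and 6.0% at E18.5, 19.3% and 16.8% in the P1 libraries, 17.4% and 12.9% at P3, and 33.8% and 47.6% at P7. Here the P7 libraries lay above all others and the E18.5 libraries below. The log2 ratio of Myl7 to Myl2 was 3.26 higher at P7 than at E18.5 (exact permutation p = 0.0190 over the time points, adjusted p = 0.0571). The Myl4 share of Myl3 plus Myl4 was 10.3% and 10.2% at E18.5, 16.1% and 12.9% in the P1 libraries, 13.95% and 9.22% at P3, and 29.6% and 54.9% at P7. Its log2 ratio was 2.65 higher at P7 than at E18.5 (exact permutation p = 0.0667, adjusted p = 0.0762). With the most abundant transcript of each gene, TPM or a pseudocount, none of the 4 ratios passed an adjusted p of 0.05.

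Myh7b as a share of the 3 heavy chains was 1.08% and 1.03% at E18.5, 0.139% and 0.229% in the P1 libraries, 0.0994% and 0.134% at P3, and 0.0747% and 0.170% at P7. It was highest at E18.5, with overlap among the postnatal time points (exact permutation p = 0.0762, adjusted p = 0.0762). Without P7 replicate 2 the adjusted p was 0.0381 for Myh7b, for Myh7/Myh6 and for Myl7/Myl2, and without P3 replicate 1 it was 0.0381 for Myl7/Myl2. The summed FPKM of the regulatory light chains was 1.01 to 1.49 times that of the essential light chains in the 8 mouse libraries, over a fall of the regulatory sum from 7271 to 151 FPKM. This ratio of sums was chosen after its values were seen.

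**Figure D3:**
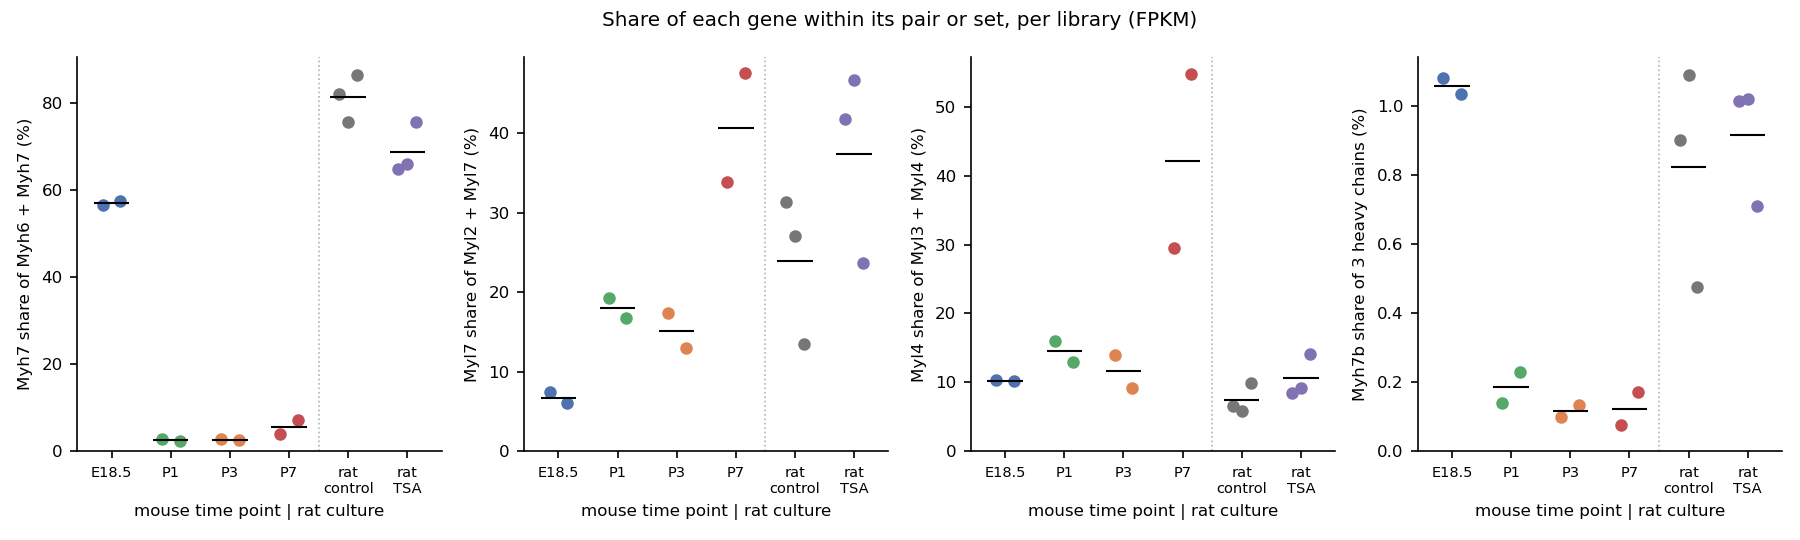
Share of Myh7 in Myh6 plus Myh7, of Myl7 in Myl2 plus Myl7, of Myl4 in Myl3 plus Myl4 and of Myh7b in the 3 heavy chains, in percent of FPKM, per library (points) with the mean (bar), for the mouse time points and the rat groups. In mouse the Myh7 share drops from 57.3% and 56.6% to below 3% at P1, and the shares of Myl7 and Myl4 are highest at P7.

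Transcript shares within a gene are described without a test, as the short reads were divided among overlapping models. Myh7 was mostly assigned to ENSMUST00000168485.7 at E18.5 (70.8% and 63.4% of its FPKM) and to ENSMUST00000102803.10 at P1 (93.3% and 90.2%). At P7 a 595-base model, ENSMUST00000227401.1, took 33% and 66.7% of the little Myh7 that remained. Myl2 was assigned to ENSMUST00000014080.12 for 72.5% and 68.3% at E18.5 and for 38.0% and 42.1% at P1, and to the longer ENSMUST00000111751.7 for 21.4% and 25.0% at E18.5 and 57.6% and 51.7% at P1. Myl3, Myl4 and Myl7 were dominated by 1 model each, with 91.0 to 97.6%, 84.5 to 94.4% and 100.0% of FPKM over the 8 libraries. Myh6 was divided between full-length models of 6113 and 6008 bases and a 542-base model that took 16.1 to 30.9%. Myh6 and Myh7 are similar in sequence, so reads may be divided between them with error, and the Mhrt RNA overlaps Myh7 on the opposite strand with no strand-specific library stated.

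Other genes that build or regulate the thick filament were listed as partners. The lists overlap, as Mybpc3 and Myom1 are also cardiomyocyte markers and Mybphl is also an atrial marker. Of 14 tested, 1 was called lower at P1 and 12 at P7, beside 6.06% and 12.3% of all tested genes. The medians were −0.50 and −3.23 on the log2 scale, and 0 were called higher. Mybpc3, which binds the myosin filament, fell from 679 to 37.7 FPKM by P7 (log2 fold change −4.25, adjusted p = 6.7e-05). Trim55, a sarcomere ubiquitin ligase, Myom1, of the M band, and Ttn, the giant spring protein, had log2 fold changes of −4.17, −3.95 and −3.66. Mybphl and Obsl1 were not called, at −0.58 and −0.29.

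Among 19 tested transcription factors and cofactors linked to myosin genes, 2 were called lower at P1, Hey2 (−2.43, adjusted p = 6.5e-05) and the thyroid hormone receptor Thra (−1.13, adjusted p = 0.0013), beside 6.06% of all tested genes. At P7 10 were called lower and 1 higher, beside 12.3% and 15.4% of all tested genes, with a median of −1.03. Hopx, Irx4, Nkx2-5 and Hey2, all known from ventricular muscle, had the largest falls at P7, of −4.39, −3.67, −3.41 and −3.35. Nr2f2, a nuclear receptor of atrial cells that other cell types also express, was the factor called higher at 1.16 ± 0.22 (adjusted p = 0.0028). Tead1, Tead4, Gata4 and Srf were not called at P7, and Srf at −0.73 passed the p threshold but not the size.

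Mhrt, a noncoding RNA between Myh6 and Myh7, had 32.2 and 43.3 FPKM at E18.5, 18.6 and 45.2 FPKM at P1, 11.2 and 15.5 FPKM at P3 and 2.87 and 0.914 FPKM at P7. Its libraries overlapped between E18.5 and P1, where the log2 fold change was −0.35 (limma, adjusted p = 0.56). It was called lower at P3 (−1.44, adjusted p = 0.027) and at P7 (−3.82, adjusted p = 2.1e-04). Relative to the cardiomyocyte markers its value at P7 was 0.14 (adjusted p = 0.79). Of 3 tested genes of skeletal muscle myosins and a myosin-binding protein, Myl1 and Mybpc2, the latter of the binding protein, were called lower at P7 (−2.73 and −1.94). Of all tested genes 12.3% were called lower. Markers of skeletal muscle moved the same way, with 3 of 3 tested called lower at P7 (median −4.56) and a summed level of 1257 to 1624 FPKM at E18.5, 101.6 to 169.9 FPKM at P1 and 3.2 to 10.1 FPKM at P7. Most of that sum was Ckm, the muscle creatine kinase that heart muscle also uses, with a mean of 1391 FPKM at E18.5, while Myod1, Myog and Pax7, the defining factors of the skeletal muscle lineage, were at or below 0.176 FPKM in every mouse library. The part of skeletal muscle in the results was not tested.

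Of 9 tested genes of smooth muscle and nonmuscle myosins, with a myosin kinase gene among them, 2 were called higher and 1 lower at P1. At P7, 3 were called higher and 1 lower. Of all tested genes, 10.1% and 15.4% were called higher at these times and 6.06% and 12.3% lower. At P7 Myh9, a nonmuscle heavy chain, was at 2.1, the kinase gene Mylk at 1.93 and the smooth muscle heavy chain Myh11 at 1.59 on the log2 scale. Myl9, a light chain of smooth muscle and nonmuscle myosin, was called lower at both times (−1.04 and −1.80). Of 9 tested atrial markers, 3 were called lower at P7 (Bmp10, Nppa and Dkk3) and 1 higher (Nr2f2, also among the transcription factors above), with a median of −0.82. The summed atrial markers ranged from 918 to 1626 FPKM at E18.5 and from 276 to 425 FPKM at P7, beside the smaller falls of Myl7 and Myl4, but most of each sum was Nppa, with means of 1210 and 313 FPKM, which the fetal ventricle expresses too. The part of atrial cells in those values was not tested.

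Genes with profiles most like those of the myosin genes were sought among 6141 protein-coding genes of at least 10 FPKM, by the root mean square difference of centred log2(FPKM + 1) over the 8 mouse libraries. Myl2 and Myl3 shared Cox6a2 (0.21 and 0.24) and Myoz2 (0.26 and 0.33) as the closest genes, followed by Csrp3 (0.30) for Myl2 and Tnnc1 (0.37) for Myl3. Closest to Myh6 were Mylk3 (0.28), the kinase of the cardiac regulatory light chain, Popdc2 (0.38) and Asb2 (0.40). Closest to Myl7 were Mtus2 (0.27), S100a1 (0.35) and Fhl2 (0.35). For Myl4 they were Ehbp1 (0.41), Rasl11b (0.42) and Echs1 (0.43), and for Myh7b Aldh1b1 (0.39), Cited1 (0.47) and Ptgds (0.48). Myh7 had no near match, the closest being Ckm at 0.84, Cited1 at 1.02 and Tnni1, a troponin gene, at 1.03.

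ATAC-seq peaks were found near the starts of 6 of the 7 genes, and Myl7 had none in any of the 8 libraries. Within 2.5 kb of any annotated start, 2 of 7 genes had a peak in replicate 1 of E18.5 and 5 in replicate 2, beside 44.7% and 41.5% of all protein-coding genes. The counts were 6 and 3 of 7 at P1 (46.8% and 29.3% of all genes), 4 and 4 at P3 (70.3% and 63.3%), and 4 and 5 at P7 (61.7% and 60.0%). Among protein-coding genes of at least 100 FPKM, the shares with such a peak were 83.8% and 76.1% at E18.5, 84.7% and 55.8% in the P1 libraries, 98.7% and 97.5% at P3, and 97.1% and 96.8% at P7. Across libraries the lists held from 13149 to 95257 peaks, so presence of a peak was not tested between time points. Of the 56 peaks near the myosin genes, 45 had a fold enrichment below the median of their own library, and their fold enrichment ranged from 2.65 to 9.61.

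At Myh6 a peak within 2.5 kb of the main start was present in 6 libraries, all but replicate 1 of E18.5 and replicate 1 of P3, and it covered the start itself in 3. A further peak lay about 1.9 kb upstream, for example at chr14:54968390-54968785 in replicate 1 of P1 with a fold enrichment of 5.58, where it covered the start of Mhrt. At Myh7 no library had a peak over the main start, including those of E18.5, when the transcript was most abundant. Its nearest was at chr14:54996845-54997051, 2219 bases upstream, in replicate 1 of P1 only, with a fold enrichment of 3.40. A peak in exons of Myh7b, 2095 to 2278 bases downstream of its start, was present in 5 libraries, and in replicate 2 of P7 a peak covered the start.

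Myl2 had a peak over its main start in 5 libraries, both of E18.5, replicate 1 of P1, replicate 1 of P3 and replicate 2 of P7. In replicate 1 of E18.5 it lay at chr5:122100825-122101037 with a fold enrichment of 4.85 and covered the MEF2 match of the printed window. At Myl3 the main start was covered in both libraries of P1 and in replicate 2 of P7, while a peak in an intron, 2066 to 2369 bases downstream at other annotated starts, was present in 7 libraries. That intron peak had its highest fold enrichment, 9.60, in replicate 1 of P3 at chr9:110765873-110766335.

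Myl4 had a peak near an annotated start in all 8 libraries, but those shared by all lay at the upstream start of ENSMUST00000018800.8, a model that took at most 0.131% of Myl4 FPKM. The nearest of these in each library was 0 to 62 bases from the start of Cdc27, a ubiquitously used cell cycle gene on the opposite strand. The start of the most abundant Myl4 model had a peak within 2.5 kb in 1 library, replicate 1 of P3, 260 bases away. Reading the window around main starts only, Myl7, Myl4 and Myh7 thus had peaks in 0, 1 and 1 of 8 libraries.

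**Figure D4:**
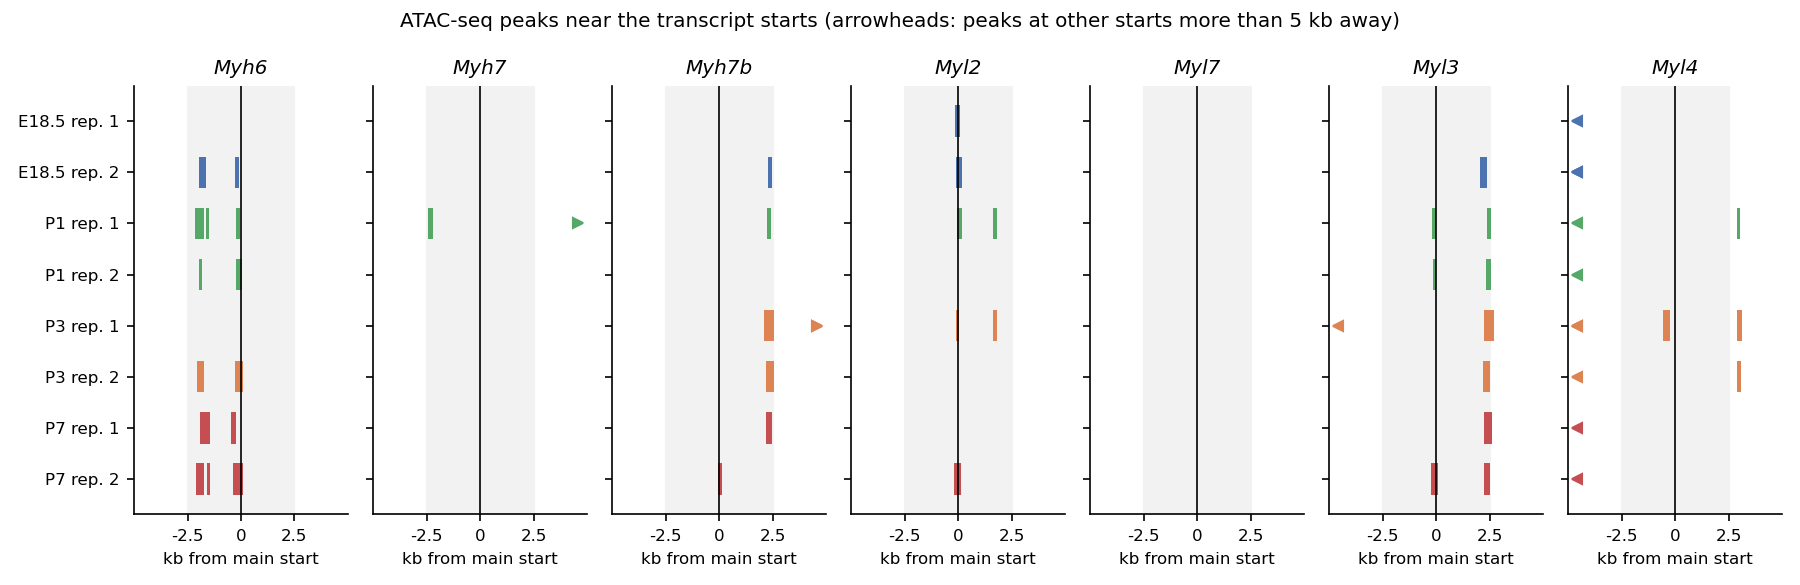
ATAC-seq peaks (bars, to scale) by library around the main start of each myosin gene, in kb along the direction of transcription, with the 2.5 kb window in grey and arrowheads for peaks at other annotated starts more than 5 kb away. Myl7 has no peak, Myh7 has peaks in replicate 1 of P1 only, and the peaks of Myl4 shared by all libraries lie at its distant upstream start.

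In rat, libraries with TSA were compared with control, and Myl7 was the only member that was called. Myl7 had 97.1, 92.5 and 46.7 FPKM in control and 227, 202 and 189 FPKM with TSA, so the groups did not overlap. The mean was 2.62-fold higher with TSA, with a log2 fold change of 1.44 ± 0.27 (limma, adjusted p = 0.040). TSA was higher in 3 of 3 same-numbered pairs, which any pairing gives where the groups do not overlap. With the pairing as a block the adjusted p was 0.033. An exact permutation test of Myl7 alone gave p = 0.1, the smallest possible with 3 libraries per group. Of the 7 genes 1 was called higher, against 1.81% of all tested genes, and 0 were called lower, against 0.316%.

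The Myl7 call was lost without control replicate 1, control replicate 2 or any TSA library and without the filter on low FPKM, with log2 fold changes of 1.11 to 1.63 over the left-out libraries. Calls among all tested genes, 290 in the main fit, were also fewer there. They were 65 and 92 without control replicates 1 and 2, and 61, 33 and 245 without TSA replicates 1, 2 and 3. Without the filter they were 221. The Myl7 call was kept without control replicate 3, where 458 genes were called. Without replicate 3 of both groups, an alternative chosen after seeing the data, Myl7 was also called higher, with a log2 fold change of 1.17 (adjusted p = 0.0023), beside 549 calls among all tested genes.

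Myh6 had 503, 649 and 413 FPKM in control and 769, 719.7 and 1010.1 FPKM with TSA, again without overlap. Its log2 fold change of 0.68 ± 0.20 did not pass the adjusted threshold (adjusted p = 0.13), and without overlap any pairing gives higher values in 3 of 3 pairs. Without replicate 3 of both groups its value was 0.38 ± 0.13 (adjusted p = 0.098). Myh7 had 2297, 2007 and 2596 FPKM in control and 1407, 1386 and 3121 FPKM with TSA, where TSA was below control in pairs 1 and 2 and above it in pair 3 (log2 fold change −0.32 ± 0.32, adjusted p = 0.64). Without replicate 3 of both groups the Myh7 libraries did not overlap and its value was −0.62 ± 0.08 (adjusted p = 0.0092), past the p threshold but not the size needed for a call. Myh7b had 25.4, 29.3 and 14.4 FPKM in control and 22.3, 21.7 and 29.6 FPKM with TSA (0.13 ± 0.26, adjusted p = 0.84), and without replicate 3 of both groups its value was −0.30.

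Myl2 had 213, 248 and 301 FPKM in control and 317, 229.7 and 610 FPKM with TSA (log2 fold change 0.49 ± 0.34, adjusted p = 0.49). Myl3 had 1408, 1499.6 and 2465 FPKM in control and 1099, 802 and 2042 FPKM with TSA (−0.51 ± 0.37, adjusted p = 0.51). Myl4 had 99.2, 91.5 and 268 FPKM in control and 101, 80.7 and 336 FPKM with TSA (0.06 ± 0.62, adjusted p = 0.97), where TPM gave −0.01. These 3 genes overlapped between the groups, although Myl3 was lower with TSA in 3 of 3 pairs. Replicate 3 was the highest of its group for Myl2, Myl3, Myl4 and Myh7, both in control and with TSA. Without replicate 3 of both groups, Myl3 had −0.63 ± 0.15 (adjusted p = 0.044), which passed the p threshold but not the size, Myl2 had 0.23 ± 0.16 (adjusted p = 0.37) and Myl4 −0.07 ± 0.12 (adjusted p = 0.70).

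**Figure D5:**
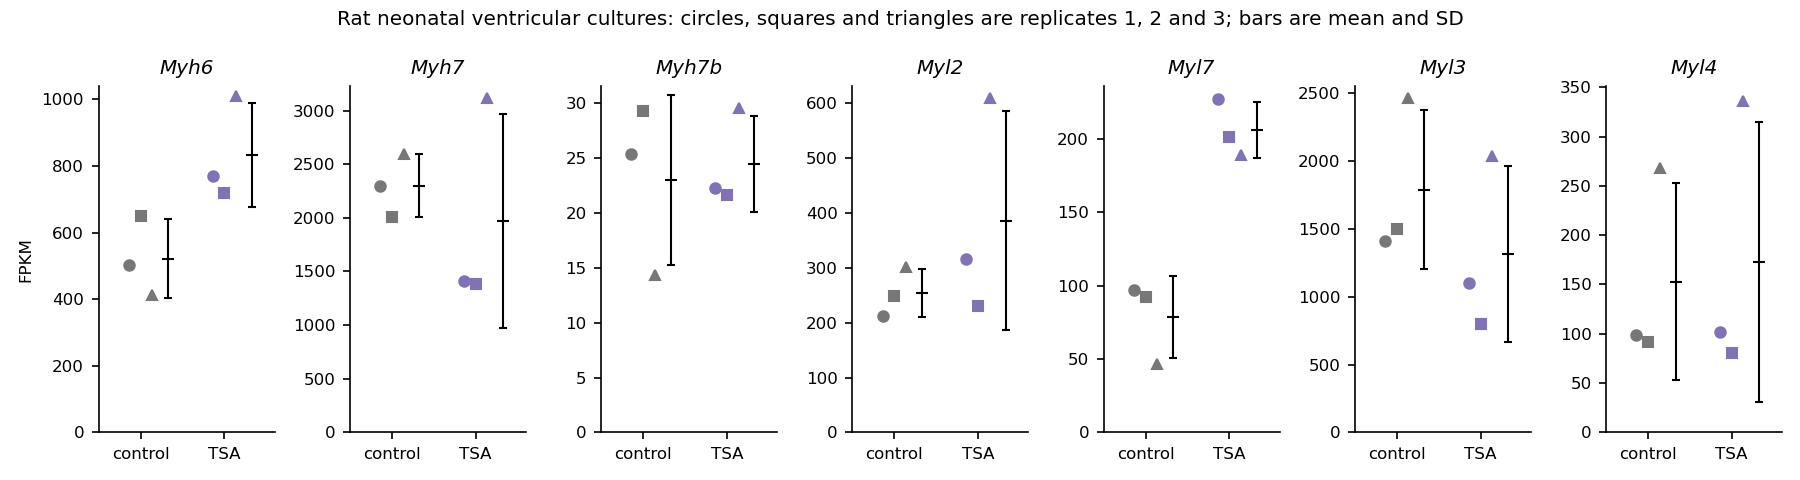
FPKM of each myosin gene in the 3 control and 3 TSA libraries of rat ventricular cultures, with replicates 1, 2 and 3 as circles, squares and triangles and the mean with its SD beside them. Myl7 and Myh6 do not overlap between the groups, and replicate 3 is highest in both groups for Myh7, Myl2, Myl3 and Myl4.

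Within rat libraries the Myh7 share of Myh6 plus Myh7 was 82.1%, 75.6% and 86.3% in control and 64.6%, 65.8% and 75.5% with TSA. The log2 ratio was 1.01 lower with TSA in the mean (exact permutation p = 0.1, the smallest possible, adjusted p = 0.4). The groups narrowly did not overlap, so any pairing gives lower values with TSA in 3 of 3 pairs. The Myl7 share of Myl2 plus Myl7 was 31.3%, 27.1% and 13.5% in control and 41.8%, 46.7% and 23.7% with TSA (exact permutation p = 0.3, adjusted p = 0.4), higher in 3 of 3 pairs. The Myl4 share of Myl3 plus Myl4 was 6.58%, 5.75% and 9.82% in control and 8.45%, 9.15% and 14.1% with TSA (exact permutation p = 0.3, adjusted p = 0.4), also higher in 3 of 3 pairs. The Myh7b share was 0.900%, 1.09% and 0.475% in control and 1.01%, 1.02% and 0.710% with TSA (exact permutation p = 0.7, adjusted p = 0.7). Without replicate 3 of both groups the log2 ratios with TSA minus control were −1.0 for Myh7/Myh6, 0.94 for Myl7/Myl2, 0.56 for Myl4/Myl3 and 0.04 for Myh7b, with exact permutation adjusted p of 0.444, 0.444, 0.444 and 1.0 and too few libraries to pass.

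The regulatory light chains summed to 0.206, 0.214 and 0.127 times the essential light chains in rat control libraries and to 0.453, 0.489 and 0.336 times with TSA. This ratio of sums was added after its values were seen and has no test. Of the 13 tested thick filament partners, 14 cardiomyocyte markers and 19 transcription factors, 0 were called with TSA in either direction by limma. Of all tested genes 1.81% were called higher and 0.316% lower, so 0 calls in lists of this size say little. The 14 cardiomyocyte markers summed to 11800 to 14950 FPKM in control and 11150 to 21580 FPKM with TSA. The rat and mouse levels come from different annotations and from cultured against freshly isolated cells, so the Myh7 share of 75.6 to 86.3% in rat control cultures and of 2.37 to 2.83% in mouse cells at P1 are given side by side without a test.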

How the data were processed

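RNA-seq was deposited for 8 mouse and 6 rat libraries and ATAC-seq for 8 mouse libraries. The authors' FPKM, TPM and coverage per transcript came from HISAT2 2.1.0 and StringTie 1.3.5, per the submitters' processing notes, on mm10 and rn6 (the rat file headers name StringTie 1.3.4d). ATAC-seq peaks were called by the authors per library with MACS2, and the deposited lists hold a score, a fold enrichment ratio and −log10 p and q values. Gene FPKM was the sum over transcript lines. Genes with at least 1 FPKM in 2 mouse or 3 rat libraries were tested (13979 and 13625) with limma 3.58.1 in R 4.3.3 on log2(FPKM + 1), with Benjamini-Hochberg adjustment over all of them, after the scripts were tested on simulated data. Ratios between genes were compared by two-sided exact permutation tests. The deposited files gave no read counts, so depth was worked out from coverage and FPKM. No source used here states the strand of the libraries.

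The genes and lists were chosen with earlier results of these data known. Besides the 7 genes, up to 4 genes per list and direction, by size of change, were to be named, and 3 genes per myosin gene by likeness of profile. Further genes of a list were named after their values were seen. Same-numbered rat libraries deviated together (r = 0.224, 0.194 and 0.346 over genes), which was read as pairing. For mouse numbers r ranged from −0.096 to 0.171 and was not read as pairing, although it passed the 0.1 set as threshold for E18.5 with P1 (0.171) and P3 with P7 (0.116). Libraries with different numbers were not compared, so the pairing of the rat libraries was not tested. For the scale relative to cardiomyocyte markers, each library's mean log2(FPKM + 1) of the 16 markers (14 in rat) was subtracted. Alternatives covered the pseudocount, filter, TPM, size factors, estimated reads, the replicate block and each left-out library.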

Additional observations from a re-analysis of the deposited data

How the results depend on the processing

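Of the alternatives for the 7 log2 fold changes in each comparison, 722 kept direction and side of the threshold, 50 lost the call, 7 gained it and 40 turned direction. With the replicate block no call of the 7 genes changed, and rat Myl7 had a log2 fold change of 1.44 (adjusted p = 0.033). The causes of the changes below were not tested.

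Called lower against E18.5 were 5 genes at P1 with median-of-ratios size factors. Relative to cardiomyocyte markers 2 were called lower at P1, 3 were called lower and 1 higher at P3, the P7 libraries gave 3 lower and 1 higher, 0 lower and 3 higher between P1 and P7, and 0 lower and 3 higher between P3 and P7. With 0.1 in place of 1 FPKM added on that scale (chosen after seeing the data) these were 2 lower, then 3 lower and 1 higher, 4 and 2, 0 and 2, and 0 and 2. Of the 13979 tested genes, 3199, 11672, 13787, 13777 and 13674 were called higher in these comparisons with 1 FPKM added, and 141, 69, 15, 1 and 0 lower. With 0.1 FPKM added, 3281, 10811, 13450, 13544 and 13339 were called higher. Without the filter, 0 of the 7 genes were called lower between P3 and P7 and 0 higher in rat. Of all genes, 15 of 31008 and 221 of 21275 were then called in either direction, against 496 and 290 in the main fits. Leaving out a mouse library leaves 1 library at its time point, and the number of calls among all tested genes then also changed. Leaving out single libraries gave 2 to 4 genes lower than E18.5 at P1, 6 to 6 genes at P3, 7 to 7 genes at P7, 0 to 1 between P1 and P3 (1 without P1 replicate 1), 5 to 7 between P1 and P7, 0 to 4 between P3 and P7, and 0 to 1 higher in rat.

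Relative to the markers, Myl7 turned to 0.55 at P1, to 0.05 by P3 and to 1.65 by P7, Myh6 to 1.16 at P3 and 0.37 at P7, and Myl4 to 0.97 at P7. From P1 to P7, Myh7 turned to 0.35, Myh7b to 1.15, Myl4 to 1.15 and Myl7 to 1.10. From P3 to P7 they turned to 0.40, 1.34, 1.74 and 1.59. The positive values of Myh7b arose with the added 1 FPKM, above its P7 level: its mean FPKM at P7 was 32.8-fold lower than at P1 and 8.55-fold lower than at P3, and with 0.1 FPKM added it was −0.54 (adjusted p = 0.39) and 0.06 (adjusted p = 0.92). With 0.1 FPKM added Myl7 was 0.56, 0.08 and 1.86 at P1, P3 and P7, Myh6 1.2 and 0.59 at P3 and P7, and Myl4 1.18 at P7; from P1 to P7 Myh7 was 0.40, Myl4 1.35 and Myl7 1.3, and from P3 to P7 0.45, 1.93 and 1.78. Rat Myl4 was −0.00. Myl7 at P1 was 0.05 with TPM, Myh6 at P1 was −0.14 to 1.13 over left-out libraries (−0.14 without P1 replicate 2), and Myl4 from P3 to P7 was −1.17 to 0.14 (0.14 without P3 replicate 1). Rat Myh7b was −0.30 to 0.33 over left-out libraries, and was −0.16 without control replicate 3, −0.01 without TSA replicate 3 and −0.30 without both. Rat Myl4 was −0.01 with TPM, −0.00 relative to the markers, −0.16 and −0.22 without control replicates 1 and 2, −0.57 without TSA replicate 3 and −0.07 without both replicates 3.

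Leaving out single libraries gave log2 differences from E18.5 to P7 of −5.07 to −4.12 for Myh7/Myh6, 2.84 to 3.67 for Myl7/Myl2, 1.88 to 3.42 for Myl4/Myl3 and −3.84 to −2.65 for Myh7b. In rat they were −1.27 to −0.76, 0.49 to 1.41, 0.31 to 0.81 and −0.14 to 0.47, with −0.14 for Myh7b without control replicate 3. Peaks in both libraries were near 2 genes at E18.5, 3 genes at P1, 3 genes at P3 and 4 genes at P7. The upper 0.5 of peaks by score gave 0, 0, 1 and 2, and equal peak numbers gave 1 gene at P1, 0 at P3 and 0 at P7. Single libraries gave 2 to 5, 3 to 6, 4 to 4 and 4 to 5. With 2 libraries per time point, small differences were not detectable.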
